A study of Mus musculus with 2 samples.

Results

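Chromosome 12 of the mouse was set apart from the rest of the genome in a comparison of histone marks between Dicer knockout (KO) and Dicer wild-type (WT) cells. Its 1062 listed events were 586 proximal ones, before 50 Mb in mm9, and 476 distal ones, from 50 Mb on, out of 21418 events on all chromosomes. A window around the Dicer1 locus, from 105900000 to 106010000, was left out. An event is a place where the authors' software found more reads of a mark in one genotype than in the other. The chromosome was chosen because it had the highest share of KO-higher events of 20 chromosomes in earlier results of these lists: 95.7% for H3K27ac, 48.1% for H3K4me3 and 88.9% for H3K36me3. These shares are therefore descriptions.

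The KO cells are labelled Dicer KO and the WT cells Dicer WT. Both are immortalized monoclonal lines, called MSCs (not spelled out) in the culture notes and fibroblasts in the sample titles, grown in Alpha-MEM with serum and pen/strep, and no other treatment is named before fixation with formaldehyde. Chromatin immunoprecipitation with an H3K27ac antibody followed by sequencing is labelled for 1 sample per genotype. The H3K4me3 and H3K36me3 lists carry the same genotype names. Although 2 replicates per line are mentioned in the series' design, each list gives 1 value per genotype, so there is no replicate error, no test was made between the genotypes, and genotype and clone cannot be told apart. Intervals are exact 95% intervals of counting error.

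Dicer is the ribonuclease that cuts microRNA precursors into mature microRNAs. Acetylation of lysine 27 of histone H3 (H3K27ac) marks active enhancers and promoters, trimethylation of lysine 4 (H3K4me3) marks promoters, and trimethylation of lysine 36 (H3K36me3) lies along transcribed gene bodies. Mouse chromosome 12 carries Dicer1 itself and the imprinted Dlk1-Dio3 domain, which encodes a large cluster of microRNAs. A mark listed higher in one line over a whole chromosome can differ site by site or through a shift of all reads of that chromosome, so the reads expected as background were set beside the sites. No gene annotation in mm9 was used, so places are given by coordinate without gene names.

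GEM, the program behind 3 of the 6 lists, writes a short sequence of 8 letters beside some events. These k-mers are shown because they are the sequence content the lists attach to single sites. On chromosome 12, 9 of 62 KO-higher H3K4me3 events carried one (14.5%, 6.86 to 25.8), against 126 of 738 in the whole list (17.1%). The 3 k-mers were shifted copies of each other, TTTCACTT and TTCACTTT sharing 7 letters at an offset of 1 and TTCACTTT and ACTTTCAC sharing 5.
H3K4me3 higher in KO, 6 events on chromosome 12: TTCACTTT
H3K4me3 higher in KO, 2 events: TTTCACTT
H3K4me3 higher in KO, 1 event: ACTTTCAC
H3K4me3 higher in WT, 2 events: CGCCCTGT
H3K4me3 higher in WT, 1 event: CGCCCGGT
H3K4me3 higher in WT, 1 event: CCCCCGGT
H3K36me3 higher in WT, 4 events: GTGGTGTG
H3K36me3 higher in WT, 2 events: GTTGTGTG
All letters are capitals because the whole k-mer is what GEM reported, 5′ to 3′ as the lists print it. As printed, no KO-higher H3K4me3 k-mer holds a G and no WT-higher H3K4me3 k-mer holds an A. Their reverse complements do hold these letters, so this difference depends on the strand printed. Of 32851 promoters of RefSeq (GRCm38.p6, 250 bases before to 50 after the start), TTCACTTT was found on either strand in 1.56% and CGCCCTGT in 1.00%. On chromosome 12 of that build the shares were 0.783% and 0.861% of 1277 promoters. Events could not be assigned to promoters, because the builds differ.

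The direction of events differed between the parts of the chromosome and between marks. For H3K27ac, 395 of 406 proximal events were higher in KO (97.3%, 95.2 to 98.6), and so were 291 of 311 distal ones (93.6%, 90.2 to 96.0), against 82.5% over all chromosomes. For H3K4me3, 37 of 45 proximal events were higher in KO (82.2%, 67.9 to 92.0), but only 25 of 84 distal ones (29.8%, 20.3 to 40.7). The share over all chromosomes was 11.8%. The median share of the other chromosomes was 17.5%, and the highest of them was 36.4%, on chromosome 16. For H3K36me3, 135 of 135 proximal events were higher in KO (lower limit 97.3%), while 57 of 81 distal events were (70.4%, 59.2 to 80.0), against 33.8% over all chromosomes. For H3K36me3 the KO list was made by GPS and the WT list by GEM, and what that adds to the split was not tested.

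**Figure D1:**
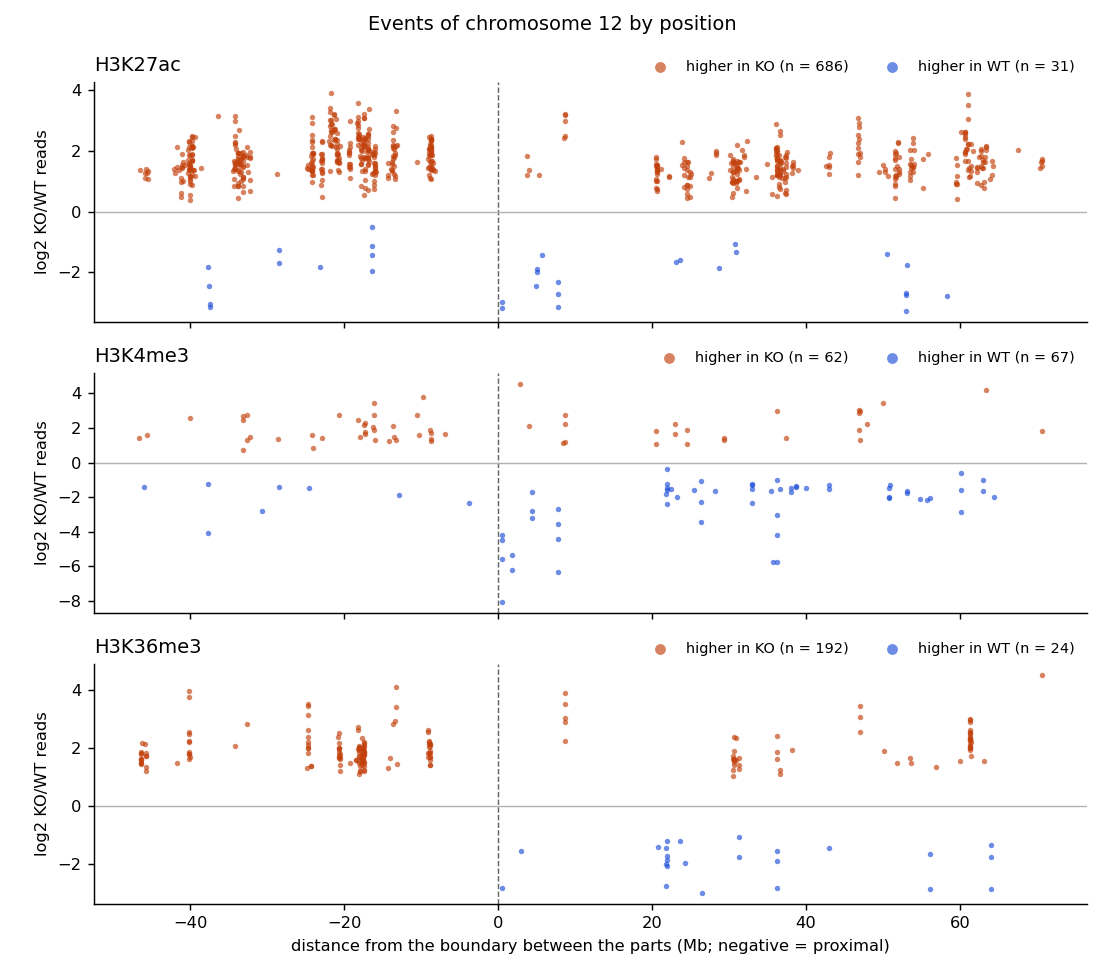
Each point is 1 event of chromosome 12, placed by its distance from the 50 Mb boundary in Mb (horizontal) and its log2 ratio of KO over WT reads at the scale of the lists (vertical), with events higher in KO above 0 and events higher in WT below it. WT-higher H3K4me3 and H3K36me3 events lie mostly right of the boundary, where 59 of 67 and 24 of 24 fall. The H3K36me3 event with 0 reads in KO is drawn at the floor of 3 reads.

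Events were not spread evenly. No event of any mark lay between 58647602 and 70489409, a stretch of 11.8 Mb, and the 2 parts were themselves separated by 4.31 Mb without events, from 46175099 to 50484412. The last proximal event was an H3K4me3 event higher in WT, with 26.7 scaled reads in KO and 135 in WT. The first distal event was also an H3K4me3 event higher in WT, with 0.9 scaled reads in KO and 239 in WT. The boundary at 50 Mb thus fell in an empty stretch, with WT-higher events on both sides.

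In windows of 10 Mb, all 5 proximal windows had more KO-higher than WT-higher events for each of the 3 marks. Of the 7 distal windows with events, 6 had more KO-higher events for H3K27ac and 6 for H3K36me3, but only 2 for H3K4me3, where 5 had more WT-higher events. H3K27ac was tied, 9 against 9, in the window from 50 to 60 Mb. The fullest window, from 30 to 40 Mb, held 131 KO-higher and 4 WT-higher H3K27ac events, 17 and 1 H3K4me3 events, and 58 and 0 H3K36me3 events.

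**Figure D2:**
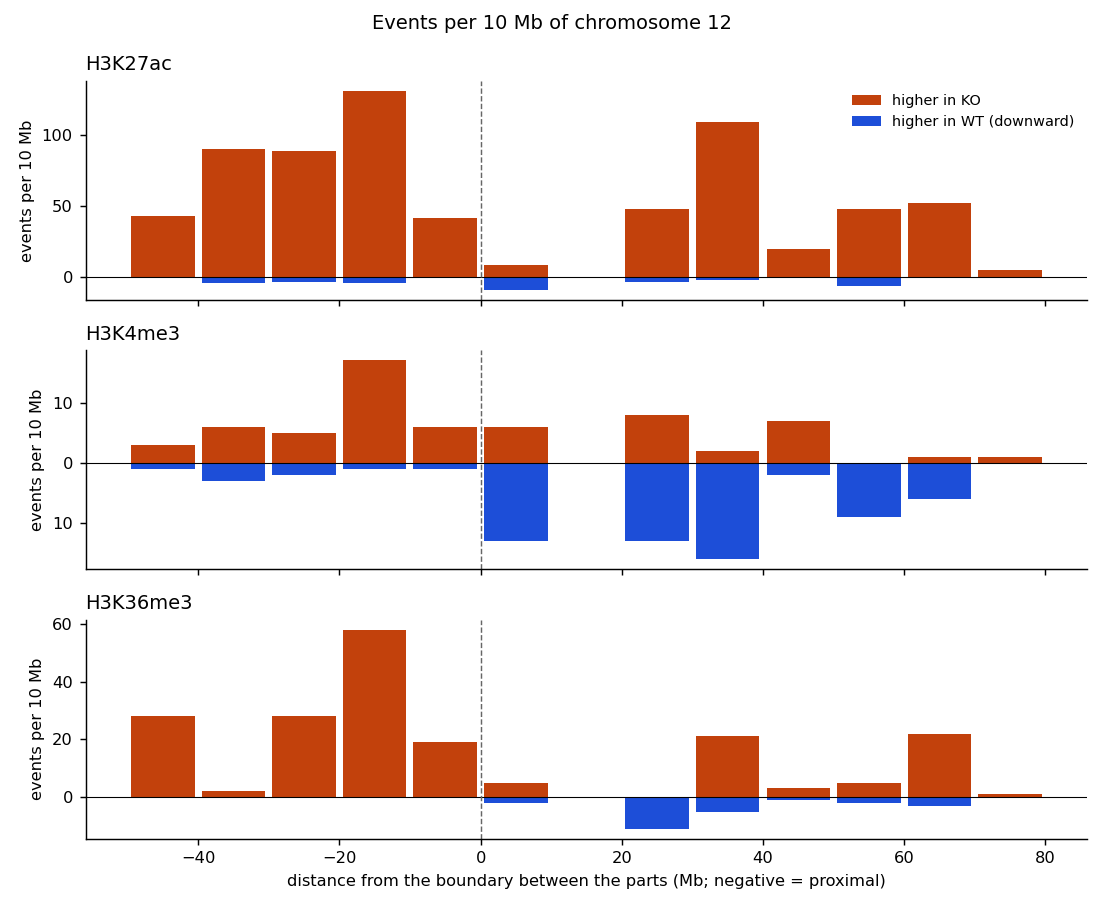
Bars give the number of events per 10 Mb of chromosome 12 by distance from the 50 Mb boundary in Mb, upward for events higher in KO and downward for events higher in WT, with a panel per mark. Proximal windows are nearly all upward in each mark, and distal H3K4me3 windows are mostly downward. The empty window is the one from 60 to 70 Mb.

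The background reads of the whole chromosome also differed between the lines. The lists give 1 expected value per chromosome for H3K27ac and H3K4me3, taken here as background in each genotype's own reads. The sources do not define this value or say whether it counts reads of the listed sites. For H3K27ac it was 135 in KO and 93.6 in WT on chromosome 12, and for H3K4me3 it was 84.1 in KO and 54.5 in WT. Relative to the median chromosome, the KO over WT ratio of background reads was 1.27 for H3K27ac and 1.20 for H3K4me3, the highest of 20 chromosomes in both. The next highest were chromosome 11 with 1.14 for H3K27ac and chromosome 1 with 1.07 for H3K4me3. Background was low on chromosome 12 in both lines, 3 from the lowest of 20 chromosomes in KO and 2 from the lowest in WT, for each mark. Since the value is 1 per chromosome, it cannot tell the proximal from the distal part. Whether the lines differ in the number of copies of chromosome 12 was not tested.

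**Figure D3:**
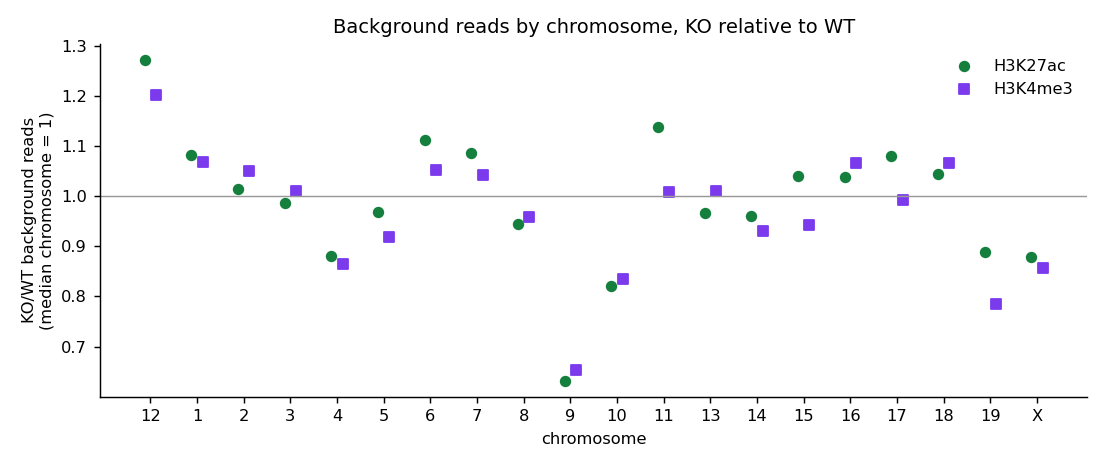
Points give the ratio of KO over WT background reads per chromosome, divided by that of the median chromosome (vertical, no unit), for H3K27ac (circles) and H3K4me3 (squares); chromosome 12 is drawn first. It stands highest for both marks, at 1.27 and 1.20, and chromosome 9 lowest.

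H3K36me3 lists hold a local expected value for each event instead. Its median was 20.3 reads at the 135 proximal and 20.5 reads at the 57 distal events of the KO list. At the 24 events of the WT list, which lie elsewhere, it was 21.4 reads. There was no proximal WT-higher event to compare, so a local ratio of the genotypes could not be formed for the proximal part.

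Every KO-higher H3K27ac event on chromosome 12 was still higher in KO after the relative shift of the chromosome was divided out. So were all 7627 on the other chromosomes. The lowest listed ratio on chromosome 12, 1.295, lies above the divisor of 1.27, so this outcome says nothing of single sites. Fewer events were far apart after the division. The median KO-higher H3K27ac event had 3.12 times as many reads in KO at the scale of the lists, against 2.85 on the other chromosomes. On the log2 scale, this median of 1.64 was the highest of the 20 chromosomes. After division by the relative background of 1.27 it was 1.30, the lowest of the 20. As folds, that is 2.45 on chromosome 12 and 2.82 on the other chromosomes, each divided by its own ratio. By then 500 of 686 KO-higher events were still at least 2-fold apart (72.9%, 69.4 to 76.2), against 86.5% over all chromosomes, and the other 186 lay between 1- and 2-fold. At the scale of the lists 90.2% had been at least 2-fold apart, against 89.6% over all chromosomes, about the same share. Events were chosen by the authors at the scale of the lists, and dividing by the largest ratio of any chromosome lowers chromosome 12 the most, so the change of rank follows in part from the division.

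The stricter scale, each genotype's reads over its own background on the chromosome, also removes an offset that all chromosomes share. On it, 288 of 686 KO-higher H3K27ac events were at least 2-fold higher in KO (42.0%, 38.3 to 45.8), against 55.8% over all chromosomes. Of the 686, 28 had fewer background units in KO than in WT, against 84 of 7627 on the other chromosomes. Here too the divisor of chromosome 12 is the largest of any chromosome. The proximal share was 51.1% (202 of 395, 46.1 to 56.2) and the distal share 29.6% (86 of 291, 24.4 to 35.2). The proximal share was the higher one. The intervals cover counting error only and nearby events are not independent, so they do not test the parts against each other.

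**Figure D4:**
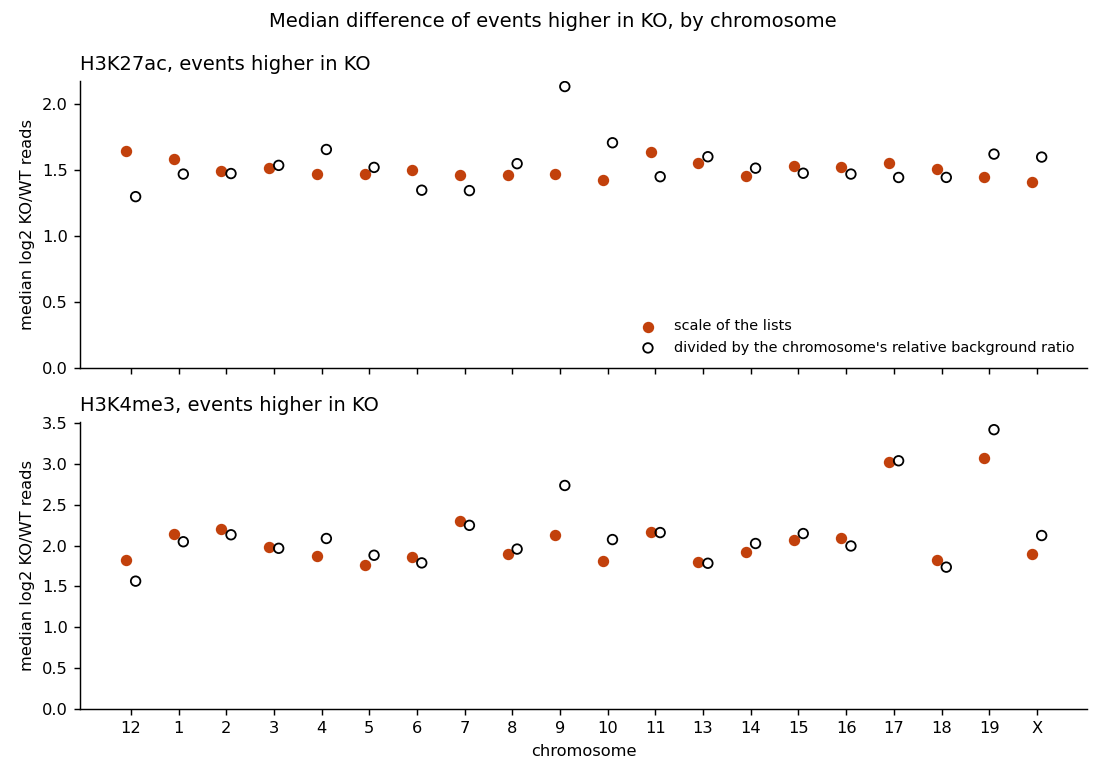
Points give the median log2 KO over WT reads of KO-higher events per chromosome, at the scale of the lists (filled) and divided by the chromosome's relative background ratio (open), for H3K27ac and H3K4me3. For H3K27ac chromosome 12, drawn first, has 1.64 at the scale of the lists and 1.30 after division, the lowest open point of its panel.

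The proximal and distal medians of H3K27ac differed by a similar amount in both lists. The median log2 KO over WT was 1.79 for proximal and 1.49 for distal KO-higher events, a difference of 0.29. For WT-higher events it was -1.83 proximal and -2.16 distal, a difference of 0.34 towards KO as well. The WT-higher medians rest on 11 and 20 events. The other marks did not show the same pattern: for KO-higher events the proximal median was lower than the distal one, 1.63 against 1.87 for H3K4me3 and 1.82 against 2.0 for H3K36me3. WT-higher H3K4me3 events had -1.67 proximal and -1.74 distal, from 8 and 59 events. Without replicates, none of these differences has a test.

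The proximal H3K27ac site with the largest −log10 q lay at 31744794. KO had 923 reads there and WT 77.3 after scaling, which is a ratio of 11.9 (9.62 to 15.0), which was still 9.39 after division by the relative background. An H3K4me3 event lay beside it at 31744661, with 177 KO and 32.2 WT reads, and an H3K36me3 event at 31751151, with 34 reads in KO and 5.2 in WT. All marks were thus higher in KO there, over 11313 bp.

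The sites at 32699973 and 9890286 had the next largest −log10 q of the proximal part. KO had 1003 and 1025 reads at them and WT 185 and 205, with ratios of 5.42 (4.67 to 6.30) and 5.0 (4.35 to 5.78). The largest proximal ratio among events with at least 5 reads in both lines, 15.1 (9.88 to 24.7), was at 28300621, where 285 reads in KO stood against 18.8 in WT. The longest H3K27ac region, chr12:41221537-41240900, held 9 events with 4365 reads in KO and 1165 in WT, a ratio of 3.75 (3.53 to 3.99). The longest distal region, chr12:87341348-87353575, held 5 events with 1829 and 847 reads (2.16, 1.998 to 2.34).

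Distal H3K27ac sites reached similar ratios. At 58645732 there were 742 reads in KO and 79.9 in WT, a ratio of 9.29 (7.49 to 11.6), and 58634698, close by, had 9.19 (7.41 to 11.5). The event at 86132380 had 720 reads in KO and 96.8 in WT (7.44, 6.09 to 9.14). At 111011793, 342 reads in KO stood against 23.1 in WT, a ratio of 14.8 (10.1 to 23.0), and 111012851 beside it had 11.5 (8.06 to 16.7). These distal sites remained 5.85 to 11.6-fold higher in KO after division by the relative background.

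Among WT-higher H3K27ac events, the 11 proximal ones lay in few places. The events at 12504309 and 12527861 had 28.4 and 30.6 scaled reads in KO against 252 and 254 in WT, WT over KO ratios of 8.87 (5.91 to 13.8) and 8.30 (5.60 to 12.7). The event at 12491342 close to them had 28.9 in KO and 158 in WT. A merged region, chr12:33569423-33575923, held 4 further events with 499 scaled reads in KO and 1282 in WT, a WT over KO ratio of 2.57 (2.30 to 2.86). The remaining 4, at 12294615, 21487793, 21505521 and 26876903, had WT over KO ratios between 2.40 and 3.56. In units of own background all 11 were at least 2-fold higher in WT, as were 97.2% over all chromosomes, so the count is near the background.

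The leading distal WT-higher H3K27ac events were at 50492413, with 29.5 scaled reads in KO and 266 in WT (WT over KO 9.02, 6.05 to 13.9), and at 103000055, with 21.9 and 213 (9.73, 6.15 to 16.3). Of the 31 WT-higher H3K27ac events of the chromosome, 30 were at least 2-fold apart (96.8%) at the scale of the lists, against 95.5% over all chromosomes, and 30 after division by the relative background, against 92.2%. The median reads in the higher line were 313 for KO-higher and 213 for WT-higher H3K27ac events of the chromosome.

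H3K4me3 was higher in KO at 62 events, all of them at least 2-fold in units of own background, as were 100% over all chromosomes, so this count says nothing particular of chromosome 12. At the scale of the lists divided by the relative background of 1.20, 54 of 62 were at least 2-fold apart (87.1%, 76.1 to 94.3), against 96.2% over all chromosomes. Without that division it was 60 of 62 (96.8%), against 97.4%. The proximal event with the largest −log10 q, at 33855255, held 401 KO reads and 36.5 WT reads, or 11-fold more in KO (6.78 to 19.1), and carried the k-mer TTCACTTT. Nearby, 33861338 had 414 and 60.9 (6.80, 4.70 to 10.5). At 16858249 there were 434 reads in KO and 67.2 in WT (6.46, 4.53 to 9.72). The largest proximal ratio in units of own background was at 40249768, where KO had 119 reads and WT 8.6 after scaling. That is 4.0 unscaled WT reads, under the limit of 5 used for the largest ratios. At the scale of the lists the ratio of this event was 13.8 (5.28 to 51.7), with a −log10 q of 3.25. Events with any KO-higher k-mer had ratios between 2.14 and 11.

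Distal KO-higher H3K4me3 was led by 58645762, with 980 reads in KO and 145 in WT (6.77, 5.32 to 8.87). It lay 30 bp from the H3K27ac event at 58645732. The events at 96932908 and 96934079 had 660 and 1026 reads in KO against 88.9 and 281 in WT. A ratio of 18.6 (8.90 to 46.6) was reached at 113345446, with 279 reads in KO and 15.0 in WT. Of the 62 KO-higher H3K4me3 events, 40 had a KO-higher H3K27ac event within 1 kb (64.5%, 51.3 to 76.3), against 51.6% over all chromosomes, a share just inside that interval. A WT-higher H3K27ac event lay within 1 kb of 0 of them, as of 0 of the 738 events of the list. Of the 40, 25 were proximal. Chromosome 12 has more KO-higher H3K27ac events (686) than most chromosomes, and what that adds to the count was not tested.

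WT-higher H3K4me3 was mostly distal, with 59 of 67 events. In units of own background, 47 of 67 were at least 2-fold higher in WT (70.1%, 57.7 to 80.7), against 30.1% over all chromosomes. At the scale of the lists it was 65 of 67 (97.0%), against 93.5% over all chromosomes, and after division by the relative background the same number, against 76.1%. The gap between chromosome 12 and the whole list thus was wide on the 2 scales that divide by background and narrow on the authors' own. Chromosome 12 has the highest KO over WT background, so the division raises its WT over KO ratios relative to other chromosomes. Chromosome 9, with the lowest, holds 1409 of the 5542 WT-higher H3K4me3 events. The wide gap therefore follows in part from the division. The median WT over KO ratio of the 67 events was 3.35 at the scale of the lists and 2.38 in units of own background. In those units 1 of the 67 turned to KO, against 606 of 5473 on the other chromosomes, which also follows in part from the division. At 86216974, 27.1 scaled reads in KO stood against 499 in WT, a WT over KO ratio of 18.4 (14.0 to 24.5). The event at 76409888 had 170 and 832 (4.88, 4.31 to 5.53), and 57797559 had 20.7 and 439 (21.2, 15.6 to 29.5). At 51750064, which carried CGCCCTGT, 7.0 scaled reads in KO stood against 285 in WT, a ratio of 40.7, and at 86216026 there were 2.8 and 151 (53.9). A WT-higher H3K27ac event lay within 1 kb of 8 of the 67 (11.9%, 5.30 to 22.2), against 7.07% over all chromosomes, which lies within that interval. A KO-higher one lay beside 0 of the 67, against 0.0541% over all chromosomes.

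The 8 proximal WT-higher H3K4me3 events were each single in their list, with no other event of it within 5 kb. The one with the largest −log10 q, at 37108480, had 100 scaled reads in KO and 363 in WT (WT over KO 3.62, 3.05 to 4.30). The largest ratio, 16.8 (9.43 to 32.8), was at 12269236, with 6.0 and 101. Those at 4038616, 12294450, 21549272 and 25365787 had ratios of 2.35 to 2.80, and those at 19294720 and 46175099 had 6.94 and 5.06. Of the 8, 4 were at least 2-fold higher in WT in units of own background. A WT-higher H3K27ac event lay within 1 kb of 1 of the 8 (12.5%, 0.316 to 52.7), against 7.07% over all chromosomes. It was at 12294615, beside the H3K4me3 event at 12294450.

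H3K36me3 events had the fewest reads, with a median of 46.7 in KO for KO-higher and 44.1 in WT for WT-higher events of the chromosome, and 86 of the 192 KO-higher ones had a −log10 q under 3. The proximal KO-higher event with the largest −log10 q, at 29362894, had 183 reads in KO and 46.7 in WT (3.92, 3.01 to 5.17). Among proximal events with at least 5 unscaled WT reads, the largest ratio, 15.5 (6.23 to 50.5), was at 9900049, where 45 reads in KO stood against 2.9 in WT. The longest proximal stretch, chr12:31952040-31964215, held 8 events with 556 reads in KO and 168 in WT (3.31, 2.87 to 3.83).

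The longest distal H3K36me3 stretch, chr12:111297034-111307854, held 10 KO-higher events with 609 reads in KO and 130 in WT, a ratio of 4.70 (4.03 to 5.51). WT-higher H3K36me3 was distal throughout, in short groups: the longest, chr12:71794183-71795382, held 3 events with 40.8 scaled reads in KO and 155 in WT (WT over KO 3.80, 2.47 to 6.12). In that list the top event by −log10 q, at 114023136, had 6.9 and 49.4 (7.16, 2.65 to 27.5) and carried the k-mer GTTGTGTG. Of the 24 WT-higher events, 6 carried a k-mer (25%, 9.77 to 46.7), against 4.76% of the whole list.

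The window from 50 to 60 Mb held few events but large differences in both directions. All 3 marks were higher in WT at chr12:50484412-50502361. There, 4 H3K4me3 events together had 23.0 scaled reads in KO and 745 in WT, a WT over KO ratio of 32.4 (24.3 to 44.0), and 2 H3K27ac events had 63.4 and 536 (8.45, 6.44 to 11.3). The H3K36me3 event at 50486614 had 0 reads in KO and 36 in WT, at least 5.46-fold higher in WT by the lower limit of its interval, or 7.07-fold with KO set to a floor of 3 reads in that library.

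All 3 marks were higher in KO at chr12:58634698-58647602 in the same window. The 4 H3K27ac events there had 2544 reads in KO and 315 in WT (8.07, 7.24 to 9.03). The 3 H3K4me3 events had 2386 and 618 (3.86, 3.42 to 4.38), and the 5 H3K36me3 events had 263 and 32.8 (8.02, 6.01 to 10.9). Among the H3K36me3 events, that with the largest −log10 q was at 58642783, with 72.2 and 6.3 reads (11.5). In the whole window, the median ratio of the 13 WT-higher H3K4me3 events was 21.2 WT over KO. Directions alternated along it: an H3K4me3 event at 52835799 had 150 reads in KO and 6.4 in WT (23.4, 7.82 to 114), and one at 57798024 had 1.8 in KO and 147 in WT (WT over KO 81.4). The WT-higher and KO-higher sites lie on one chromosome with one background value, so dividing by it enlarges the differences of one group and shrinks those of the other.

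Events of all lists were then chained where they lay within 10 kb of each other, which gave 451 chains on chromosome 12. At least 2 marks were present in 71 of them. In 60 of the 71 every event was higher in KO (84.5%, 74.0 to 92.0), against 47.0% over all chromosomes. In 7 every event was higher in WT, and 4 held both directions. Chains of 1 mark had the same share higher in KO, 321 of 380 (84.5%), against 55.1% over all chromosomes. The share among chains of several marks thus restates the direction by which the chromosome was chosen, and does not show that marks agree. Of 46 proximal chains with at least 2 marks, 45 were higher in KO and 1 in WT; of 25 distal ones, 15 were higher in KO, 6 in WT and 4 held both.

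All 3 marks were present in 10 chains (2.22% of the chains), against 1.46% over all chromosomes. The 4 proximal ones were higher in KO in every event. The largest, chr12:9890286-9932391, held 11 H3K27ac events with 5436 reads in KO and 1939 in WT (2.80, 2.67 to 2.95). Its single H3K4me3 event, at 9904993, had 247 and 40.8 (6.05, 3.80 to 10.2), and its 11 H3K36me3 events had 489 and 104 (4.68, 3.93 to 5.57). The H3K4me3 event lay 40 bp from an H3K27ac event and the H3K36me3 events lay on both sides of it, all but 1 at lower coordinates. At chr12:32526677-32540213 the H3K27ac ratio was 8.83 (7.61 to 10.3), with 4.44 for H3K4me3 and 3.70 for H3K36me3. At chr12:41108052-41138667, 9 H3K36me3 events had a ratio of 3.55 (2.98 to 4.24).

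The distal chain with most events, chr12:86181982-86230962, held both directions within 48981 bp. Its 10 H3K27ac events were all higher in KO, with 6524 reads in KO and 1972 in WT (3.31, 3.16 to 3.47). Right of its centre, 4 H3K4me3 events were higher in WT, with 110 scaled reads in KO and 1053 in WT, a WT over KO ratio of 9.54 (8.27 to 11.01). At its right end, 1 H3K4me3 event at 86230918 was higher in KO, with 519 reads in KO and 64.4 in WT (8.06, 5.58 to 12.1). H3K36me3 changed direction along the region. The 3 events left of the WT-higher H3K4me3 events were higher in WT, with 40.8 scaled reads in KO and 157 in WT (WT over KO 3.85, 2.50 to 6.20), and the 3 events right of them were higher in KO, with 213 and 59.7 (3.57, 2.80 to 4.55).

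**Figure D5:**
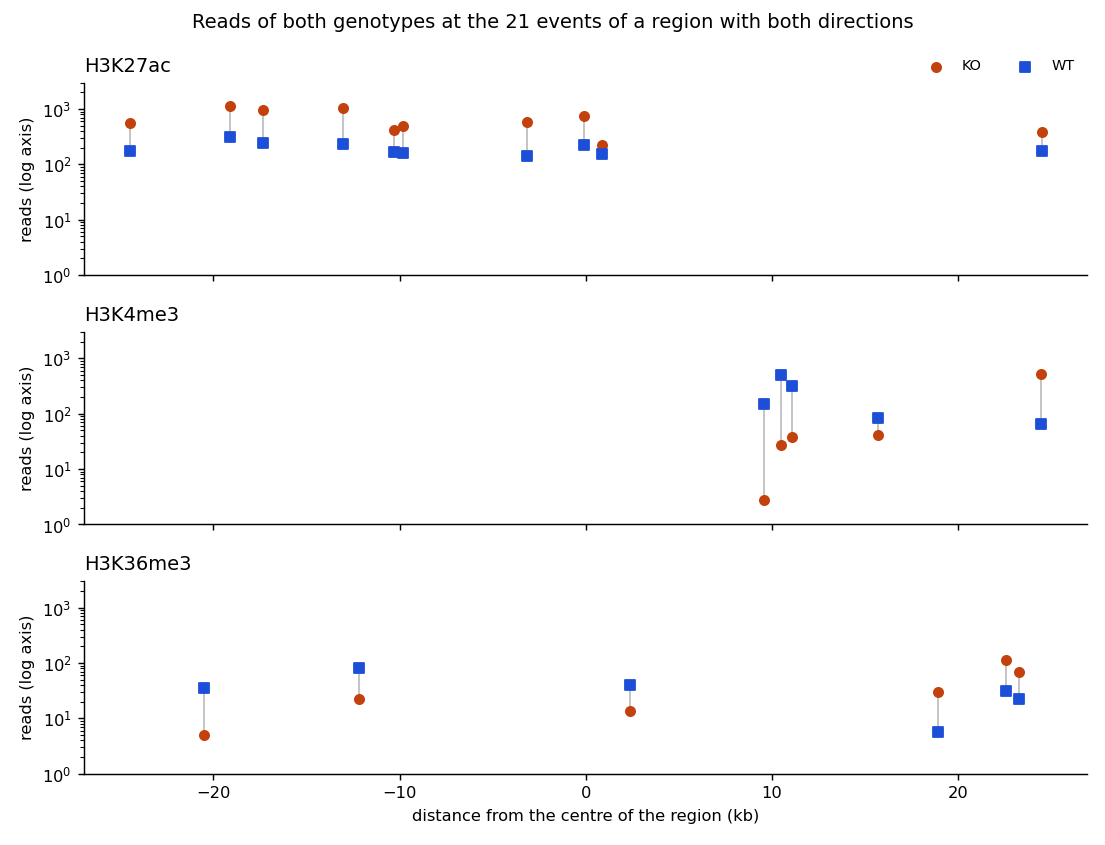
Reads of KO (circles) and WT (squares) at each of the 21 events of chr12:86181982-86230962, by distance from the centre of the region in kb (horizontal) and on a log axis (vertical), with a panel per mark; the lower line's reads are scaled by the authors. KO lies above WT at all 10 H3K27ac events, and H3K4me3 and H3K36me3 hold events of both directions.

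The other 2 distal chains of 3 marks with both directions were chr12:86597840-86616748 and chr12:92993905-93017283. In both, H3K27ac was higher in KO (3.92, 3.59 to 4.28, and 2.63, 2.32 to 2.99) and H3K4me3 higher in WT (WT over KO 2.90, 2.05 to 4.12, and 2.54, 2.31 to 2.80). H3K36me3 was higher in KO in the first and in WT in the second. At chr12:96971806-96985251 all marks were higher in KO, with ratios of 3.63 for H3K27ac, 3.59 for H3K4me3 and 5.88 for H3K36me3.

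The window left out around Dicer1 held 3 events that are not counted above. Its H3K4me3 events at 105931999 and 105932460 had 1.7 and 5.7 scaled reads in KO against 290 and 493 in WT, and its H3K27ac event at 105939229 had 239 reads in KO and 105 in WT. Just outside it lay a KO-higher H3K27ac event at 105800111, with 235 reads in KO and 62.9 in WT, and a WT-higher H3K36me3 event at 106038232, with 5.1 and 37. The lists hold no event with a −log10 q under 2, and the weakest KO-higher H3K27ac event of the chromosome, at 109634578, had 177 reads in KO and 132 in WT, with a −log10 q of 2.03.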

How the data were processed

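Alignment was to mm9, and TopHat 1.4 is named without its role, per the submitters' processing notes. The 6 deposited lists hold events from GPS or GEM, per the file headers and names; no version is named. The H3K27ac lists pooled replicates, per their names. Each deposited event has an estimated count of the higher genotype and a scaled signal of the other, and the authors' fold is their ratio. The deposited background signal (expected reads) is not defined in the sources used here. Deposited −log10 q values only rank and filter events. The deposited shape scores were not used.

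The factor applied to the other genotype was recovered as the step (0.3 to 3, by 0.0005) that made most values whole within 0.06. In the KO lists WT had been multiplied by 0.8495 (H3K27ac), 2.1455 (H3K4me3) and 0.575 (H3K36me3), and in the WT lists KO by 1.0935, 0.4605 and 1.697; 54.2% to 96.3% of values were whole, fewest in the WT H3K4me3 list. On 24 simulated lists the largest error was 0%, with true factors that lay exactly on the steps searched. Of 200 simulated events, 193 intervals held the true ratio. These events were drawn without a q cutoff or a choice of large ratios, so the coverage need not hold for listed or named events. Ratios are the estimated count over the scaled reads, with exact Clopper-Pearson intervals from unscaled, rounded reads. Without molecular identifiers reads need not be independent molecules, and nearby events share chromatin, so intervals cover counting error only and can be too narrow. Library totals are unknown. Where a line had 0 reads, a floor of 3 was used. Events of 1 list within 5 kb were merged.

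Named places were, per mark, part and direction, the 3 largest −log10 q, the 2 largest ratios with at least 5 other reads, the longest merged region, the 3 largest per mark and direction in units of background, all chains of 3 marks, the WT-higher proximal events and those beside the boundary; other events named inside chains, beside k-mers or at the window were chosen after their values were seen. Members and lists were chosen with earlier results of these data known. Scripts ran in Python 3.11.15 with SciPy 1.17.1 for intervals, pandas 2.3.3 and NumPy 2.4.6 for tables, and matplotlib 3.10.9 for figures.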

Additional observations from a re-analysis of the deposited data

How the results depend on the processing

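Of 108 alternatives, 87 kept the value, 21 moved it, and 0 reversed a direction. A share was kept within its counting interval, and a median within an interval from the spread of events. A count was kept within 1.5 times, and a background ratio within a small set limit. A reversal was looked for within each share or median, not in the order of the parts. Some of the 87 could not move a value. A filter at 50 reads removed no H3K27ac or H3K4me3 event, and the Dicer1 window holds no proximal event. Leaving out chromosomes 9 and 12, the lowest and highest, cannot change the median background ratio. The count of 87 is therefore not a measure of robustness. In units of own background the KO share of H3K27ac was 94.6% proximal and 88.1% distal. Medians in this section take KO-higher and WT-higher events together, unlike those above. At the scale of the lists these pooled medians of log2 KO over WT were 1.76 proximal and 1.45 distal for H3K27ac. For H3K4me3 they were 1.58 and -1.51. In units of own background they were 0.99 and 0.69 for H3K27ac, and 2.06 and -1.02 for H3K4me3. Divided by the relative background, a scale added after seeing the data, these medians were 1.41 and 1.11 for H3K27ac, and 1.32 and -1.78 for H3K4me3. With the boundary at 60 Mb, the proximal H3K4me3 share was 67.2%. The H3K27ac shares were then 95.3% proximal and 96.2% distal, so the order of the parts turned round from 97.3% and 93.6%. At ratios of at least 3 the distal H3K27ac share was 88.6%. The proximal H3K36me3 median was 1.72 at 50 reads or more, against 1.82 without that filter. The distal one was 2.25 at a −log10 q of at least 5, against 1.62 without it. At a −log10 q of at least 10 the distal H3K36me3 share was 100% of 1 event. H3K27ac events apart in units of own background numbered 319 at 2-fold, 530 at 1.5-fold and 128 at 3-fold, and 530 at 2-fold after division by the relative background. At a −log10 q of at least 5, 38 chains held several marks, 33 of them higher in KO throughout, by fewer events entering. The cause of the other moves was not tested, beyond the change of scale itself. No paired analysis was possible because each mark has a single value for KO and a single one for WT; leaving out replicates was likewise not run. The background of each list on its own was not run, since each list gives 1 genotype's value.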
